A study of Mus musculus with 24 samples.

Results

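The genes described here are 7 epithelial genes that are used as markers of the bile duct: Sox9, the keratin genes Krt7, Krt8, Krt18 and Krt19, the adhesion molecule gene Epcam and Spp1, which encodes osteopontin. They were chosen by name, and each name matched 1 of the 43629 gene identifiers in the deposited tables, so 7 of 7 were found. All 7 were above 0 in 10 of 24 libraries, and 4 of the 7 (Sox9, Krt8, Krt18 and Spp1) had a mean of at least 1 TPM over all libraries (a length-corrected share of all transcripts, the unit of the deposited tables), the level asked for in the tests across all genes. The other 3, Krt7, Krt19 and Epcam, lay below it and were tested one by one.

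The libraries came from poly(A)-selected RNA of whole liver of wild-type C57BL/6 mice, with no treatment named. Young mice were about 4 months old and old mice about 19 months old. Livers were taken at zeitgeber times (ZT) 2, 6, 10, 14, 18 and 22, where ZT0 is lights on; the labels do not state the length of the light phase, and ZT2 to ZT10 are called the light phase here. Each of the 12 groups of age and time holds 2 libraries, numbered 1 and 2, which gives 12 libraries for each age. The series' title names its question as how daily rhythms of liver gene expression differ with age. The labels do not give the sex of the mice, whether mice were pooled, or whether libraries of 1 group came from separate mice, so p-values measure the spread between these libraries, which may be in part technical.

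Bile duct cells, or cholangiocytes, line the tubes that carry bile out of the liver and are a small minority of its cells. Keratins are filament proteins that assemble as pairs of a type II chain and a type I chain: keratin 8 pairs with keratin 18 in all simple epithelia, hepatocytes included, and keratins 7 and 19 are added in the duct. Sox9 is a transcription factor that marks duct cells and the periportal cells near them, and acts in duct formation downstream of Notch signalling. Osteopontin is a secreted glycoprotein of the extracellular matrix made by duct cells, and in the liver also by stellate cells and immune cells.

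The promoters of the 3 most abundant members are shown. Krt18 passed the test of a daily rhythm described below, and Krt8 and Spp1 did not. No test compared the rhythms of these members with each other. Each sequence holds the 250 bases upstream of a RefSeq start on GRCm38.p6, written 5′ to 3′ along the gene's own strand. Krt8 lies on the minus strand and its upstream bases are chr15:102004343-102004592. Krt18 lies on the plus strand, with chr15:102027966-102028215. For Spp1, on the plus strand, the window is chr5:104434861-104435110.
Krt8: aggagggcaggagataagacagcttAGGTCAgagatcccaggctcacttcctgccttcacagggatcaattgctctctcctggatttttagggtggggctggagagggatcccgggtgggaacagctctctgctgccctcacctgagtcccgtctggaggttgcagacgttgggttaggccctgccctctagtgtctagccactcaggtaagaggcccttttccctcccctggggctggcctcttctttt
Krt18: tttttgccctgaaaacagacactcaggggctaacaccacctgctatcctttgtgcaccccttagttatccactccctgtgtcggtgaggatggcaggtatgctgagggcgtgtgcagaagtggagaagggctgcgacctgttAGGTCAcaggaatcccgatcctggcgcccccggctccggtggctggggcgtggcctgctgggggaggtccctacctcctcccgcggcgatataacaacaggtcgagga
Spp1: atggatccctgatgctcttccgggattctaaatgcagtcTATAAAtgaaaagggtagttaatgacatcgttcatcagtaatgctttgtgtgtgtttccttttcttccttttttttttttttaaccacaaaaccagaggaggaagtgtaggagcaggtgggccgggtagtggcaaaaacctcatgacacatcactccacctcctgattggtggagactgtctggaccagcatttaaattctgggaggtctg
Capitals mark the matches among 6 motifs searched on both strands. They were the E-box CACGTG, the D-box TTANGTAA, the nuclear receptor half-site AGGTCA, the TATA box TATAAA, the AP-1 motif TGACTCA and the SOX core ACAATG. In Krt8 the capitals are AGGTCA at bases -225 to -220 from the start, and in Krt18 AGGTCA at -108 to -103. In Spp1 they are TATAAA at -211 to -206. Of 32536 RefSeq promoter windows of the same length, 14% held AGGTCA and 12.3% held TATAAA. The E-box CACGTG was in 6.04%, TTANGTAA in 2.03%, TGACTCA in 4.45% and ACAATG in 10.5%, and none of these 4 letter strings was in the 3 windows printed. A match is a description of the letters only.

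Depth ran from 8.70 to 13.7 M reads of 50 bases (median 10.5), estimated from the deposited coverage, and 15989 to 16690 genes were above 0 in a library. Young libraries held 9.68 to 13.7 M and old libraries 8.70 to 12.3 M. The tissue label was checked against albumin, the main product of hepatocytes: the Alb level was 69810 ± 9371 in young liver and 64699 ± 8199 in old liver (scaled TPM, SD, n = 12 each). Of 12 clock-related genes, 12 were rhythmic over both ages, where 23.9% of all genes tested were. 3 libraries stood apart. In young ZT18 replicate 2 the summed level of 13 pancreatic acinar genes was 4939 TPM, against 18.2 to 66.8 elsewhere, and in the old ZT14 libraries mitochondrially encoded genes took 3.42% and 8.74% of the total, against 10.7% to 17.1% elsewhere. The replicate number also marked a difference: 30.3% of the 12248 genes tested differed between libraries numbered 1 and 2 (limma with replicate as a block, Benjamini-Hochberg adjusted p under 0.05). The series' design text has livers collected over 2 days, and the labels do not say what the replicate number stands for, so values within each number are given beside the results.

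The 7 members differed widely in level. On the scaled TPM scale, which corrects for transcript length, the means over 24 libraries were 133 ± 25.2 for Krt18, 100.03 ± 12.3 for Krt8, 46.3 ± 14.7 for Spp1 and 1.94 ± 0.841 for Sox9 (SD, n = 24). Krt19 followed at 0.831 ± 0.428, Epcam at 0.738 ± 0.268 and Krt7 at 0.0542 ± 0.0724. Within single libraries Krt18 was above Krt8 in 23 of 24, and Krt8 above Spp1, Spp1 above Sox9, Sox9 above Krt19 and Epcam above Krt7 in 24 of 24. Krt19 and Epcam were the neighbours whose order did not hold, with Krt19 higher in 15 of 24. The mean level of Krt8 was 120.3 times that of Krt19, and that of Krt18 160.5 times. The 3 members most restricted to duct epithelium, Krt7, Krt19 and Epcam, were thus the 3 lowest.

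**Figure D1:**
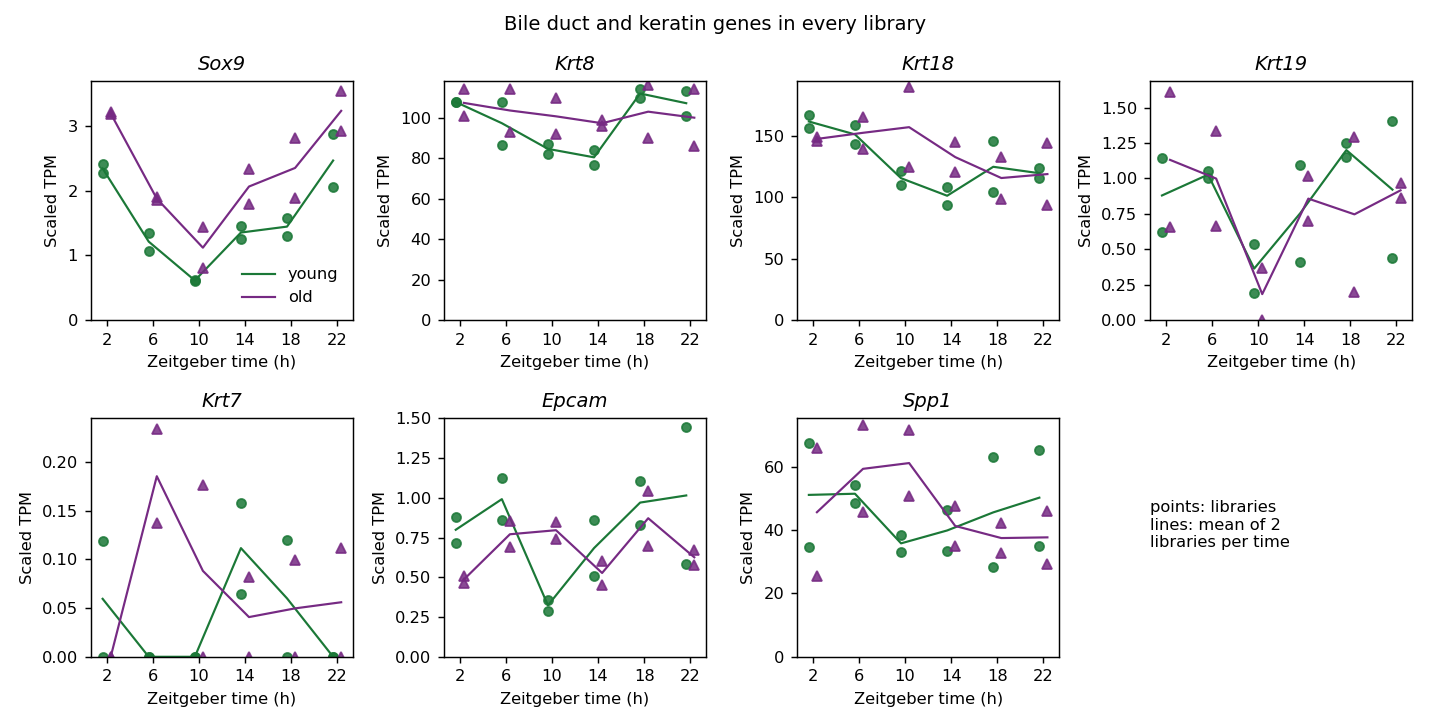
Scaled TPM (y axis, linear, from 0) against zeitgeber time in hours (x axis) for the 7 members, with 1 point for each library, coloured by age, and lines through the mean of the 2 libraries of a group. Sox9 is lowest at ZT10 and the old line lies above the young line at 6 of 6 times, while Krt7 is at 0 in 14 of 24 libraries.

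Sox9 was the 1 member of the 4 tested that differed with age over the day, and it was higher in old liver. The gene (ENSMUSG00000000567) lies at chr11:112782224-112787760 on the plus strand of GRCm38 and has 3 exons in its annotated transcript. At ZT2 the young libraries (replicates 1 and 2) held 2.41 and 2.28 scaled TPM and the old ones 3.18 and 3.21. At ZT6 they held 1.35 and 1.07 in young against 1.90 and 1.85 in old. At ZT10, the lowest time at both ages, the young values were 0.609 and 0.616 and the old values 1.43 and 0.806. So through the light phase both old libraries lay above both young ones at each time, by the smallest margin at ZT10.
In the dark phase the order was the same. At ZT14 the young libraries held 1.45 and 1.26 and the old ones 1.80 and 2.33. At ZT18 the values were 1.31 and 1.58 in young and 2.82 and 1.88 in old. At ZT22 they were 2.05 and 2.88 in young and 2.92 and 3.55 in old, and here the gap between the higher young and the lower old library was small. The groups thus did not overlap at any of the 6 times, which 0.376% of all genes tested showed in this direction. Over all times together the ages did overlap, since young liver ran from 0.609 through a median of 1.40 to 2.88, and old liver from 0.806 through 2.11 to 3.55.

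The mean over the day was 1.57 ± 0.704 scaled TPM in young and 2.31 ± 0.830 in old liver (SD, n = 12 each, which includes the change over the day). With time held fixed the difference was 0.45 on the log2(scaled TPM + 0.5) scale (SE 0.10, 95% interval 0.24 to 0.67), or 1.37-fold (1.18 to 1.59) on that scale (limma, adjusted p = 0.0308 over 12248 genes). Of all genes tested, 1.63% passed in either direction and 1.13% were higher in old liver, and 1 of 4 members did. An exact permutation of the ages within times gave p = 4.29e-05 (2-sided), the smallest that these arrangements can give. The lack of overlap at 6 of 6 times fixes this p, so it adds nothing to that order. The difference was similar from time to time, between 0.34 at ZT22 and 0.54 at ZT18, and its variation over times did not pass the test (limma, unadjusted p = 0.991). 2 of 12248 genes, or 0.0163%, passed that test. At single times none of the 4 tested members was called, where 0% of genes were at ZT2 and ZT6, 0.531% at ZT10, 0.0408% at ZT14, 0.0245% at ZT18 and 0.00816% at ZT22.
The call lies close to the threshold. Leaving out each library in turn kept the value between 0.40 and 0.50 and ended the call in 14 of 24 cases (limma, adjusted p from 0.0172 to 0.0760). The libraries whose loss ended it were young ZT2, ZT10 (each of both), ZT6, ZT14 replicate 2 and ZT22 replicate 1, and old ZT2 (each of both), ZT10 and ZT18 replicate 1 and ZT6, ZT14 and ZT22 replicate 2. Without young ZT18 replicate 2, the library with pancreatic RNA, the difference was 0.47 (limma, adjusted p = 0.0323). Among libraries numbered 1 alone it was 0.51 and among those numbered 2 alone 0.39. Neither set passed the test across all genes in its 12 libraries (limma, adjusted p = 0.321 and 0.247). Old was above young at 6 of 6 times in both sets, which the lack of overlap at each time already fixes. An exact sign-flip permutation test over the 6 times gave p = 0.03125 in each set, the smallest that it can give. That p follows from the same order and is no separate check.

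Whole liver mixes cell types, so more cells that express a gene and more RNA per cell cannot be told apart, here and below. Some marker lists of other cells moved with age in the same libraries, where 1.13% of all genes tested were higher in old liver. The 7 genes of B and plasma cells summed to 13 to 60.8 TPM in young and 118.8 to 650.8 TPM in old libraries, and 3 of the 4 tested rose. The 7 neutrophil genes summed to 3.61 to 22.7 TPM in young and 3.01 to 128.6 in old libraries, and 2 of 3 tested rose. In old libraries the neutrophil sums were 91.0 to 128.6 at ZT6 and ZT10 and 3.01 to 34.4 at the other times. The 9 Kupffer cell genes summed to 310.0 to 470.5 and 345.7 to 975.9 TPM, and 1 of 9, Marco, rose. The largest Kupffer sums, 664.3 and 975.9 TPM, were those of the old ZT10 libraries. Of the acute phase list 4 of 10 rose. The hepatocyte list had 0 of 8 changed, the sinusoidal endothelium list 0 of 8, the stellate list 0 of 9 and the T and NK cell list 0 of 1. The part of these lists in the Sox9 difference was not tested.

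Sox9 was the lowest of the 4 tested members, so counting error matters for it. It has 1 annotated transcript of 4135 exon bases, and coverage times that length came to whole multiples of the read length within about 1 base in every library. Read this way, a library held 17 to 97 Sox9 reads with a median of 51.5. The extremes were young ZT10 replicate 1 with 17 reads (exact 95% Poisson interval 9.90 to 27.2) and young ZT22 replicate 2 with 97 (78.7 to 118). The 12 young libraries held 551 reads in all and the 12 old ones 782, from the smaller depths in old libraries given above. These intervals cover counting error only.

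**Figure D2:**
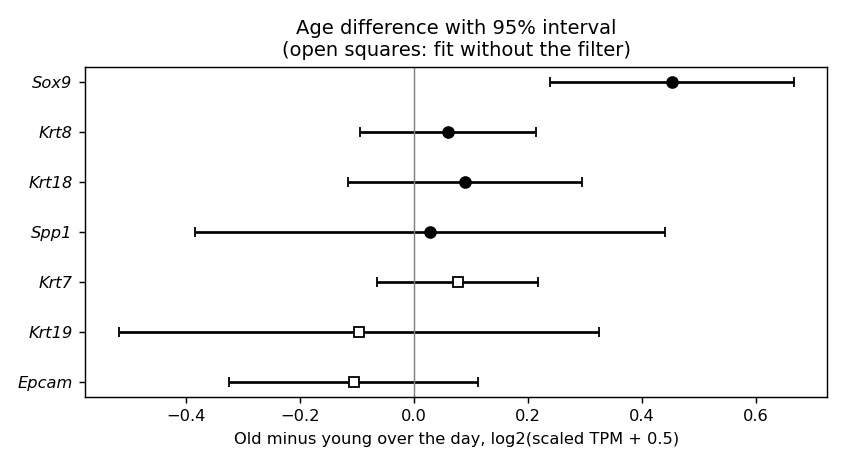
Old minus young over the day on the log2(scaled TPM + 0.5) scale (x axis) for each member (y axis), with 95% intervals over 24 libraries; filled symbols come from the fit across 12248 genes and open squares from the fit without the filter on low levels. The interval of Sox9, 0.24 to 0.67, lies above 0, and those of the other 6 members include 0.

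The range of Sox9 over the day was wider than its difference with age. Its mean was lowest at ZT10 (0.613 in young, 1.12 in old) and highest at ZT22 (2.47 and 3.23), a ratio of 4.02 in young and 2.89 in old liver. A 24 h cosine fitted to both ages peaked at ZT 22.7 (SE 0.536 h) with a peak-to-trough difference of 1.16 (log2, SE 0.16, limma, adjusted p = 7.61e-05). Sox9 and Krt18 were the 2 of 4 members that passed this test, which 23.9% of all genes passed. In young liver alone the peak-to-trough difference of Sox9 was 1.23 with a peak at ZT 22.8 (adjusted p = 0.00385, 10.7% of genes called), and in old liver 1.09 with a peak at ZT 22.6 (adjusted p = 0.0109, 8.96% called). The old and young curves did not differ by test (limma, unadjusted p = 0.901). No gene passed the test of a difference in rhythm after adjustment (0%), and 3.49% of genes, 427, had an unadjusted p under 0.05.
The rhythm of Sox9 was called in libraries numbered 1 alone (peak-to-trough difference 0.99, limma, adjusted p = 0.0334) and in those numbered 2 alone (1.33, adjusted p = 0.0182). Leaving out any 1 library did not end the call over both ages. In old liver by itself it was lost without old ZT10 replicate 2, the lower of the 2 old libraries at that time (limma, adjusted p = 0.0587), and with the deposited TPM left unscaled (adjusted p = 0.0729).

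**Figure D3:**
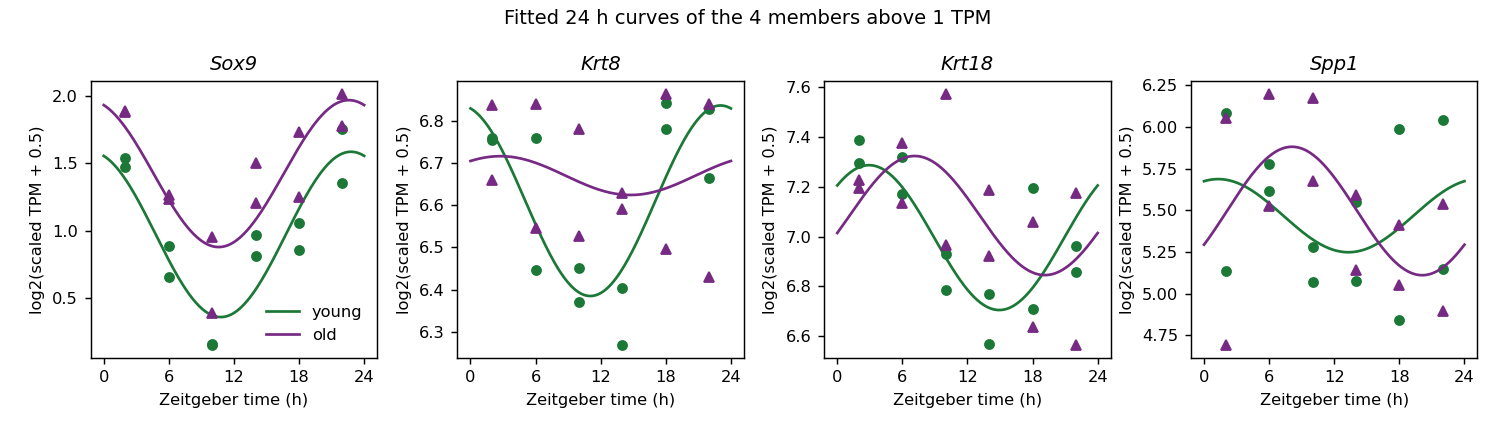
Fitted 24 h cosine curves of Sox9, Krt8, Krt18 and Spp1 for young and old liver over zeitgeber time in hours (x axis), with library values as points, on the log2(scaled TPM + 0.5) scale (y axis, not from 0). The Sox9 curves of both ages peak near ZT 22.7 and run apart by a similar distance at every time.

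Keratins 8 and 18, the pair that hepatocytes share with duct cells, did not differ with age by test. Krt8, the type II chain, is at chr15:101996711-102004342 on the minus strand, and Krt18, its type I partner, at chr15:102028216-102032026 on the plus strand, so that both face away from the same stretch of chromosome 15. Krt8 ran from 76.6 through a median of 104.3 to 114.3 scaled TPM in young and from 85.8 through 99.6 to 116.1 in old liver. The ranges of both ages overlapped over most of their length, and the lowest library was a young one. The means were 98.1 ± 13.7 and 101.9 ± 11 (SD, n = 12), a difference of 0.06 (log2, 95% interval -0.09 to 0.21, limma, adjusted p = 0.865). Krt18 ran from 94.3 through 122.8 to 167.1 in young and from 94.1 through 142.0 to 190.1 in old liver. Its means were 129 ± 24.3 and 138 ± 26.5 (SD, n = 12), a difference of 0.09 (95% interval -0.12 to 0.29, limma, adjusted p = 0.844). The intervals leave room for a rise with age of up to 1.16-fold in Krt8 and 1.23-fold in Krt18.

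Over the day Krt18 passed the test of rhythm and Krt8 did not, and their rhythms were not compared by test. The Krt18 mean was highest at ZT2 in young and at ZT10 in old liver. At ZT2 its libraries held 157 and 167 scaled TPM in young and 146 and 150 in old liver, and at ZT6 they held 144 and 159 in young and 166 and 140 in old. At ZT10 the young values were 122 and 110 and the old values 190 and 125, where the old mean rested on 1 high library, replicate 1. By ZT14 the values were 94.3 and 109 in young and 145 and 121 in old, and by ZT18 they were 104 and 146 in young and 99.0 and 133 in old. At ZT22 they were 116 and 124 in young and 94.1 and 144 in old liver. At both ages every ZT2 library was above every ZT18 library. That pair of times was picked from these values, so it is no separate check of the rhythm. The fitted curve of both ages peaked at ZT 4.8 (SE 1.06 h) with a peak-to-trough difference of 0.45 (log2, SE 0.13, limma, adjusted p = 0.0305).
In each age alone Krt18 did not pass. The young curve had a peak-to-trough difference of 0.58 with its peak at ZT 2.93 (limma, adjusted p = 0.0855), and the old curve 0.48 with its peak at ZT 7.14 (adjusted p = 0.201). The difference between the ages had an unadjusted p of 0.104. Without young ZT18 replicate 2, the library with pancreatic RNA, the young rhythm passed (0.72, limma, adjusted p = 0.0241) and the rhythm over both ages was 0.54 (adjusted p = 0.00726). In 9 of 24 fits that left out 1 library the rhythm over both ages no longer passed (limma, highest adjusted p = 0.0739, without old ZT18 replicate 1). Those libraries were young ZT14 and ZT18 replicate 1, young ZT2 and ZT6 replicate 2, old ZT2, ZT6 and ZT18 replicate 1, and old ZT2 and ZT14 replicate 2. Libraries numbered 1 alone gave 0.71 (adjusted p = 0.0741) and those numbered 2 alone 0.41 (adjusted p = 0.114), neither past the threshold. Their fitted peaks lay apart, at ZT 6.54 in libraries numbered 1 and ZT 1.51 in those numbered 2. The SE of the peak over both ages does not show this gap, and the 2 peaks were not compared by test.

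Krt8 peaked in fit at ZT 23.6 (SE 1.43 h) with a peak-to-trough difference of 0.26 over both ages, which did not pass (limma, adjusted p = 0.132). In young liver it was 0.45 (adjusted p = 0.0777) and in old liver 0.09 (adjusted p = 0.917), and the ages' curves did not differ by test (unadjusted p = 0.126). The young means ran from 80.4 at ZT14 to 111.9 at ZT18, and the old means from 97.2 at ZT14 to 107.3 at ZT2. Both ages therefore had their lowest Krt8 mean at ZT14.

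The chains of a keratin pair are needed in equal amounts for filaments, and their mRNA ratio was below 1 in 23 of 24 libraries. The Krt8 to Krt18 ratio was 0.775 ± 0.137 in young (0.604 to 1.05) and 0.756 ± 0.104 in old liver (0.576 to 0.912; SD, n = 12 each). The log2 ratio differed by -0.03 between ages (exact permutation p = 0.642, 2-sided). By time the mean ratio of 4 libraries was 0.696 at ZT2, 0.658 at ZT6 and 0.694 at ZT10. In the dark phase it was 0.768 at ZT14, 0.904 at ZT18 and 0.875 at ZT22. The ratio was thus lower at the 3 light-phase times than at the 3 dark-phase times, a pattern over the day that was not tested.

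The 3 duct markers below 1 TPM rest on few reads. Krt19, the type I keratin of ducts, is at chr11:100140810-100148665 on the minus strand. It held 0.857 ± 0.395 scaled TPM in young and 0.805 ± 0.476 in old liver (SD, n = 12 each), at about 0 to 15.3 reads a library with a median near 8.07. The difference with age, -0.10 (log2), did not pass (exact permutation p = 0.615). At ZT10 its libraries held 0.188 and 0.539 in young and 0.366 and 0 in old liver, the lowest mean of the 6 times at both ages, as for Sox9. Old ZT18 replicate 2 was also low, at 0.201. The Krt19 rhythm over both ages did not pass in a fit without the filter (limma, adjusted p = 0.355). Its age difference took opposite signs by replicate number: 0.37 among libraries numbered 1, with old higher at 6 of 6 times (exact sign-flip permutation p = 0.03125, the smallest 6 times can give). Among those numbered 2 it was -0.57, with old higher at 1 of 6 times (exact p = 0.0625). The split by replicate number was added after seeing the data, and these p-values were not corrected for the members and sets tested. The sets were not compared by test, and the share of all genes with such an order in a set was not computed. With so few reads, an age difference of Krt19 that depends on the replicate number is therefore not established.
Epcam, an adhesion molecule of epithelial cells, is at chr17:87635979-87651106 on the plus strand. It held 0.797 ± 0.334 scaled TPM in young and 0.679 ± 0.176 in old liver (SD, n = 12 each) at about 4.00 to 17.0 reads, and did not differ with age by test (-0.11, exact permutation p = 0.380). Its young libraries were lowest at ZT10, at 0.290 and 0.357, while its old libraries at that time held 0.849 and 0.743. Krt7, the type II keratin of ducts, is at chr15:101411043-101430313 on the plus strand, was listed at 0 in 8 young and 6 old libraries, and reached at most 0.234 scaled TPM (exact permutation p = 0.343). In a fit without the filter the 95% interval of the age difference was -0.52 to 0.32 for Krt19 and -0.33 to 0.11 for Epcam, on a scale whose pseudocount of 0.5 compresses changes at levels this low.

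Spp1 did not differ with age by test, and it separated the libraries by replicate number instead. The gene is at chr5:104435118-104441050 on the plus strand. Young libraries ran from 28.2 through a median of 42.4 to 67.4 scaled TPM and old ones from 25.3 through 45.8 to 73.0. The old range thus held the whole young range. The means were 45.6 ± 13.95 and 47.1 ± 15.98 (SD, n = 12), a difference of 0.03 (log2, 95% interval -0.38 to 0.44, limma, adjusted p = 0.979).
In 12 of 12 groups the library numbered 1 held more Spp1 than the library numbered 2, which 1.07% of genes tested showed. At ZT2 the values were 67.4 against 34.7 in young and 65.8 against 25.3 in old liver, and at ZT18 they were 62.9 against 28.2 in young liver. The gaps were smaller in young liver at ZT6, with 54.3 against 48.6, and at ZT10, with 38.4 against 33.2. Libraries numbered 1 ran from 38.4 through 58.6 to 73.0 scaled TPM and those numbered 2 from 25.3 through 34.0 to 50.6. The means were 56.7 ± 12.3 and 35.9 ± 8.05 (SD, n = 12 each), a difference of 0.65 (log2, 95% interval 0.44 to 0.86; limma with replicate as a block, adjusted p = 0.00146). Of all genes, 14.8% were called higher in libraries numbered 1. Sox9 was higher in the library numbered 1 in 6 of 12 groups, Krt8 in 7 and Krt18 in 4.
The daily rhythm of Spp1 did not pass over both ages (peak-to-trough difference 0.40, limma, adjusted p = 0.428), in young liver (0.44, adjusted p = 0.650) or in old liver (0.77, adjusted p = 0.321). Over both ages it was 0.47 in libraries numbered 1 alone (adjusted p = 0.375) and 0.56 in those numbered 2 alone (adjusted p = 0.180). The fitted peaks of these sets were at ZT 3.07 and ZT 8.27. The fits of all 24 libraries, and the age interval above, leave the replicate number in the spread. With that number as a block the Spp1 rhythm in old liver passed, as given in the section on processing. Its highest old means were 59.3 at ZT6 and 61.1 at ZT10, and its lowest 37.4 at ZT18. At ZT10 the old libraries held 71.5 and 50.6 and the young ones 38.4 and 33.2. The difference there was 0.75 (log2) and was not among those called at ZT10. Both old libraries lay above both young ones at this 1 time of 6, and the ages overlapped at the rest. The share of all genes with such an order at 1 time was not computed. The markers of the stellate list (9 tested) and of the lipid-associated macrophage list (4 tested), cells that also make osteopontin, had 0 genes called with age. Of all genes tested 1.63% were called. Listed genes below the filter were not tested. Of these, Trem2 held 0.159 ± 0.182 scaled TPM in young and 0.523 ± 0.567 in old liver (SD, n = 12 each). Gpnmb held 0.0442 ± 0.0707 and 0.326 ± 0.411, Itgax 0.0497 ± 0.0525 and 0.167 ± 0.125, and the stellate gene Col1a1 0.514 ± 0.263 and 0.451 ± 0.410. Whether these cells changed with age was not tested.

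**Figure D4:**
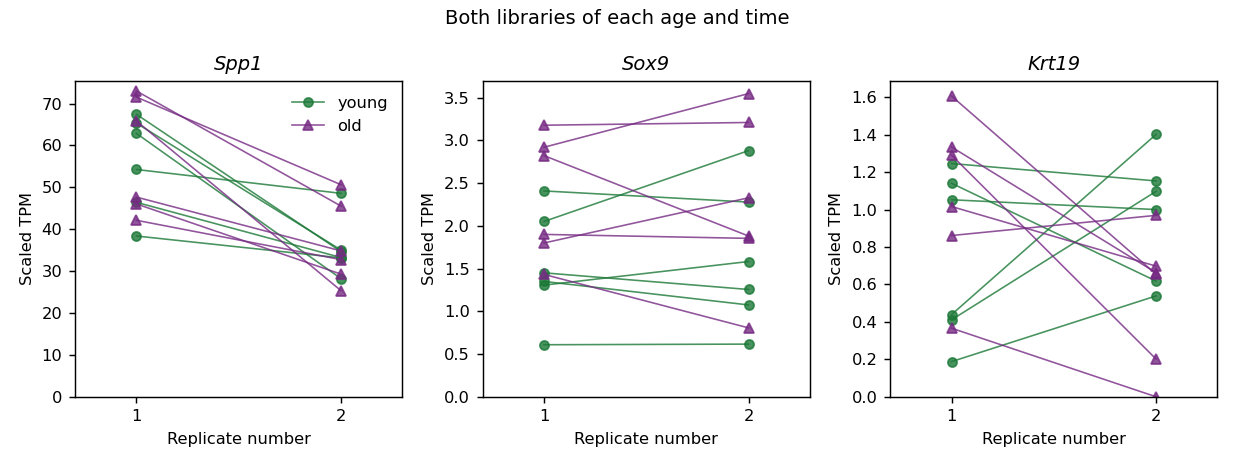
Scaled TPM (y axis, from 0) of Spp1, Sox9 and Krt19 in the 2 libraries of each group, joined by a line from the library numbered 1 to the one numbered 2 (x axis), coloured by age. For Spp1 12 of 12 lines fall from number 1 to number 2, while for Sox9 6 of 12 and for Krt19 8 of 12 do.

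Between members, no pair varied together beyond the correction. For each of 21 pairs the correlation was computed over the 12 libraries of each age, 42 relations in all, and none passed after Benjamini-Hochberg adjustment (lowest adjusted p = 0.176, permutation test). The highest r was that of Krt8 and Krt18 in old liver, with Pearson r = 0.736 and Spearman rho = 0.650 (n = 12), and r = 0.746 without the 2 libraries farthest from the Krt8 median. For Sox9 and Krt19 in old liver r was 0.721 and rho 0.476, and r fell to 0.489 without the 2 farthest libraries. These libraries share time of day and replicate number, which both move members.

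Other genes whose level followed a member over all 24 libraries were found by the highest Pearson r, as a description over libraries that share the same 6 times. For Sox9 they were Nedd4l (r = 0.862), Arhgef19 (0.851) and Lgalsl (0.839). All 3 peaked between ZT 22.1 and 22.8, as Sox9 did, and their r fell to 0.23 to 0.39 once the group means were removed. For Krt18 they were Fga (0.779), which encodes a fibrinogen chain, Apon (0.752) and Smc1a (0.748), and for Krt8 Spidr (0.790), Acsl5 (0.746) and Cyp51 (0.743). For Spp1 the first of them were Yeats4 (0.842) and Rspo3 (0.791), whose r was 0.895 and 0.913 after the group means were removed, so that this likeness lies between the libraries of a group.

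Other duct and progenitor genes did not move with age by test. Of 32 listed genes 13 were tested, 0 rose and 0 fell, with a median difference of 0.07 against -0.01 over all genes tested. Anxa1, which encodes annexin A1, held 6.37 ± 2.15 scaled TPM in young and 9.06 ± 1.80 in old liver (SD, n = 12; limma, adjusted p = 0.0900). Slc10a2, the apical bile acid transporter, was rhythmic over both ages, with a peak-to-trough difference of 1.12 and a peak at ZT 20.3 (limma, adjusted p = 0.00828). Cldn7, a duct claudin, was below the filter at 0.252 and 0.276. Of 15 other keratins 1, Krt10, was tested, and it did not differ with age. 9 of the 15, among them Krt5 and Krt14 of stratified epithelium and Krt20 of gut, were listed at 0 in 24 of 24 libraries.

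Notch signalling and the Hippo pathway both act on Sox9 in duct formation. Of the Notch list 13 of 25 genes were tested, and 0 rose, 0 fell and 0 were rhythmic (median difference 0.09), where 1.63% of all genes tested changed with age and 23.9% were rhythmic. The receptor gene Notch2 held 4.16 ± 1.58 and 4.54 ± 1.60 scaled TPM in young and old liver, its target Hes1 9.57 ± 3.22 and 9.88 ± 2.15, and the ligand gene Jag1 lay below the filter at 0.651 and 0.635. Of 18 Hippo genes tested 1 rose with age (1.13% of all genes did): Ctgf, a target of the coactivator YAP that encodes a matrix protein, from 2.31 ± 0.858 to 4.17 ± 1.54 (log2 difference 0.72, limma, adjusted p = 0.00772). The median of the 18 was 0.03. Yap1 itself held 21.8 ± 4.16 and 20.7 ± 3.14 (adjusted p = 0.908), and 2 of the 18, Ctgf and Nf2, were rhythmic, against the 23.9% of all genes. Of 6 other Sox genes tested 0 changed with age, and Sox18, a factor of endothelial cells, was rhythmic with a peak at ZT 22 (adjusted p = 0.0124).

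The linkers, desmosomes and junctions to which keratin filaments attach held rhythmic genes and none that changed with age by test. Of 24 tested genes 0 rose, 0 fell and 10 were rhythmic (23.9% of all genes were), with a median peak-to-trough difference of 0.55 against 0.36 over all genes tested. The strongest were 3 tight junction genes that peaked shortly before lights on: Cldn1 (peak-to-trough difference 2.46, ZT 23.5), Tjp3 (1.88, ZT 23.2) and Cgn (1.33, ZT 23.4), with limma adjusted p of 9.77e-07, 2.35e-06 and 4.56e-05. Ocln peaked at ZT 2.97 (1.22, adjusted p = 3.54e-05). Cdh1, which encodes E-cadherin, held 15.5 ± 4.84 in young and 10.2 ± 3.91 in old liver and did not pass (-0.63, adjusted p = 0.0908). Plec and Dsp, the linkers plectin and desmoplakin, did not change with age or time by test. Of 9 osteopontin receptor and processing genes tested 0 changed with age and 4 were rhythmic. The receptor gene Cd44 held 2.77 ± 1.52 in young and 4.23 ± 2.67 in old liver (adjusted p = 0.395), and the integrin gene Itgav 5.6 ± 1.98 and 6.31 ± 2.09 (adjusted p = 0.855).

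**Figure D5:**
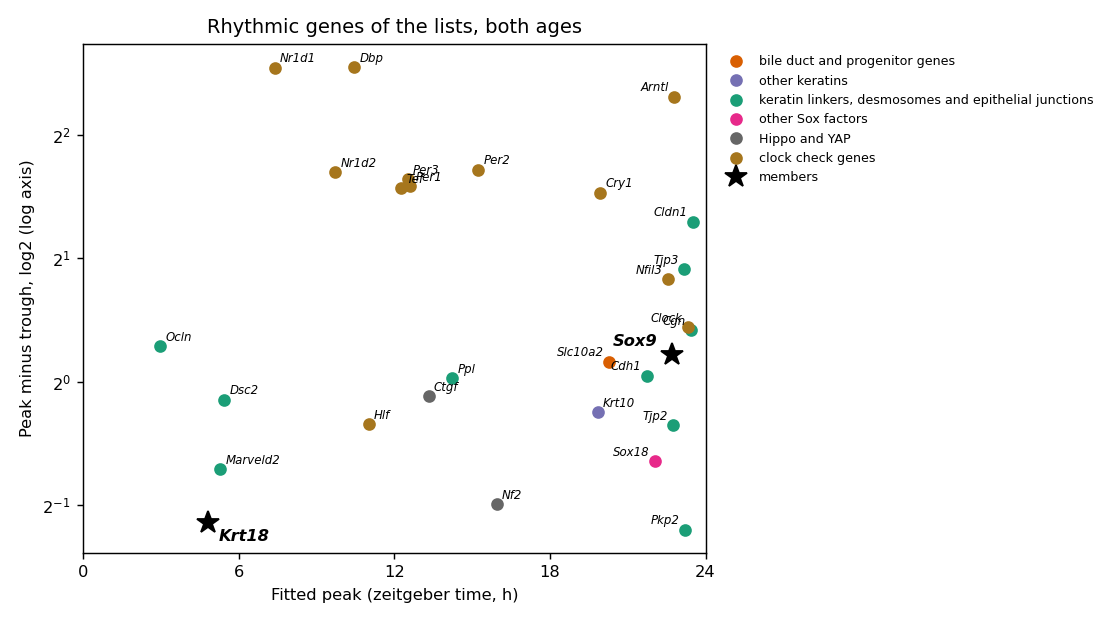
Fitted peak in zeitgeber hours (x axis) and peak-to-trough difference in log2 units (y axis, itself on a log scale) of rhythmic genes of 6 lists (duct, other keratin, junction, Sox, Hippo and clock genes), coloured by list, with Sox9 and Krt18 marked. Sox9, at ZT 22.7, lies near Tjp3 and Cldn1 in peak time only, since its peak-to-trough difference is 1.16 against 1.88 and 2.46. Krt18 lies at ZT 4.8.

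Markers of other epithelia that could reach a liver sample were also read. Of the gallbladder and gut list Cdh17, Vil1, Krt20, Muc5b and Muc3 were at 0 in 24 of 24 libraries, and Tff3, Lgals4 and Fabp2, which were above 0 in every library, did not change with age by test. Tff2, the ninth gene, was at 0 in 22 of 24 libraries and above 0 in 2 young ones, with its highest level, 15.4 scaled TPM, in young ZT18 replicate 2, the library with pancreatic RNA. The 7 mesothelial genes, none of which passed the filter, summed to 0.988 to 3.14 TPM, with Muc16 at 0.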

How the data were processed

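The 24 libraries were made from poly(A) RNA of liver and sequenced strand-specifically with single 50-base reads, per the labels' protocols. The submitters' processing notes name HISAT2, StringTie and GRCm38, without versions. Per the file headers, the deposited tables give each gene's TPM, FPKM and coverage. No read counts were given, so the main scale is TPM. Each library's deposited TPM was divided by a median-of-ratios factor (0.813 to 1.22), and limma 3.58.1 in R 4.3.3 was run on the log2 of this value plus a pseudocount of 0.5, for the 12248 genes with a mean of at least 1, with Benjamini-Hochberg adjustment over all of them and a threshold of 0.05. The model had 12 groups for age, and a 24 h cosine per age for rhythm. Exact permutations of age within times served genes below the filter. Coverage, a deposited signal, was used to estimate depth and reads; FPKM served as an alternative. Fits were tested on simulated data. The genes and the lists were chosen with earlier results of these data known. Named for each list were up to 4 genes with the smallest age p, up to 3 with the smallest rhythm p and direct partners of the 7 genes; some of these are given as counts only, and some are not reported here. Eppk1 was the 1 listed gene with no match.
Same-numbered libraries deviated together in 52 of 66 pairs of groups (r over 0.1; lowest -0.16, median 0.19). This was not in every pair, and the main fits were run without a replicate block. A fit with the block is given below as an alternative. For Spp1 the SE of the age difference was 0.19 without the block and 0.10 with it. Promoters came from the RefSeq table of GRCm38.p6, which has entries for 5 of the 7 genes. Alternatives were other scalings, pseudocounts (0.1 and 1), filters (none and 5 TPM), no intensity trend, the replicate block, each library left out, both libraries that stand apart most left out, and ZT10 left out. The fits within 1 replicate number were added after seeing the data.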

Additional observations from a re-analysis of the deposited data

How the results depend on the processing

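The count of members called with age, 1 (Sox9), ran from 0 to 1 over the 24 fits that left out 1 library, and was 0 with a filter at 5 TPM, under which Sox9 was not tested, and 0 within libraries numbered 1 or numbered 2 alone. The count rhythmic over both ages, 2, ran from 1 to 2 over those 24 fits, and was 1 at the 5 TPM filter and 1 within each replicate number. The count rhythmic in young liver, 1, ran from 1 to 2, was 2 without young ZT18 replicate 2 and old ZT14 replicate 1 together and 0 at 5 TPM. The count in old liver, 1, ran from 0 to 1, and was 0 with unscaled TPM and 0 at 5 TPM.
With the replicate number as a block 2 members were rhythmic in old liver, Sox9 and Spp1 (limma, adjusted p = 0.0259 for Spp1), and the Spp1 rhythm differed between ages at an unadjusted p of 0.00646 (adjusted p = 0.783). The age difference of Sox9 in that fit with the block was 0.45 (adjusted p = 0.0235), and the block changed no other call of a member.
Without ZT10 the Sox9 age difference was 0.44 and no longer passed (limma, adjusted p = 0.0793). Values near 0 changed sign. The Spp1 age difference was -0.10 without both libraries, -0.12 without ZT10 and between -0.085 and 0.14 over the 24 fits. The log2 ratio of Krt8 to Krt18 ran from -0.064 to 0.0064 and the Krt19 difference from -0.21 to 0.016. No count of rhythm differences or of members changed below the filter moved from 0 under any alternative run for it. The causes of these changes were not tested, beyond the loss of Sox9 from the genes tested at 5 TPM. Depth limits Krt7, Krt19 and Epcam most.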

Other observations

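Keratins 8 and 18 gather in aggregates with stress proteins in injured hepatocytes, and the genes of those proteins were read as a list. Of 9 tested genes 0 rose or fell with age and 4 were rhythmic over both ages, where 1.63% of all genes tested changed with age and 23.9% were rhythmic. Hspb1, a small heat shock protein gene, peaked at ZT 19.4 with a peak-to-trough difference of 2.49 (log2), and the inducible Hspa1a and Hspa1b at ZT 14.3 and 14.4 with 2.55 and 2.69 (limma, adjusted p = 0.00897 and 0.0102). Tgm2, the transglutaminase that crosslinks keratins, held 41.2 ± 6.85 scaled TPM in young and 50.1 ± 7.97 in old liver (SD, n = 12; limma, adjusted p = 0.174).
Of 5 other intermediate filament and lamin genes tested 0 changed with age. Vim, which encodes vimentin of mesenchymal cells, held 14 ± 3.37 scaled TPM in young and 16.6 ± 2.74 in old liver (limma, adjusted p = 0.408). Lmnb2, a nuclear lamin gene, was the 1 rhythmic gene of the 5, with a peak at ZT 15.5 and a peak-to-trough difference of 0.92 (adjusted p = 0.00399).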
